A study of Drosophila eugracilis and Drosophila pseudoobscura and Drosophila bifasciata with 4 samples.

Results

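Polyadenylated RNA from the ovaries of D. pseudoobscura was sequenced in 1 directional library, and its transcripts are described here by where they lie, how they are spliced and how strongly they are covered. Every line of the deposited list of genome-unique alignments was used, 14159668 of the 47498367 lines in the 4 libraries of the series (29.8%). The study dealt with the production of piRNAs, the small RNAs that silence transposons, across Drosophila species. The other libraries were polyA libraries of D. bifasciata and D. eugracilis ovaries and a 3′ end library of D. eugracilis.

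The flies were wild type females, kept on standard food at room temperature. The sample annotation gives their strain as MV2-25, whereas the study's methods name another stock. Their age is given as 2 to 7 days in the sample annotation and as 3 to 7 days in the protocol. The animals carried no transgene, and whether ovaries were pooled is not given. The D. bifasciata and D. eugracilis flies were wild type females of the same stated age range. Each group had 1 library, so there was no replicate check, no test between libraries was possible, and species and library preparation cannot be told apart.

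An ovary holds germline cells and somatic follicle cells, which build the eggshell. Among the germline cells, the nurse cells supply the oocyte with large amounts of RNA. The library averages over all of these cells, and fewer cells of a type and less RNA per cell cannot be told apart. Most messenger RNAs are made by RNA polymerase II, spliced and polyadenylated. Fly genes are compact, with many introns close to the shortest length that the spliceosome can use and a minority that are far longer. piRNA clusters are loci whose transcripts are cut into the small RNAs that guide PIWI proteins to transposons. No gene table of the mapped assembly was used here, so the defining markers of ovarian cells could not be checked. Transcripts are therefore named by contig, start, end and strand on the Nanopore assembly and carry no gene names.

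The 14159668 lines belonged to 7082759 read names, each counted once as a read pair. Both mates were present for 7076909 names and 1 mate for 5850. Pairs with distinct blocks numbered 5536054 (78.2%). Alignments fell on 260 contigs, which reached to a summed 151 Mb. Blocks of the same strand that overlapped or touched were merged into runs, and runs were joined by introns of 40 to 20000 nt that at least 3 pairs spanned. A joined set of runs is called a transcription unit. Level is given in CPM, the pairs of a unit per 1000000 genome-unique pairs. All intervals are 95% intervals, and none covers the spread between libraries. Intervals of levels and shares cover counting error only, and those of medians reflect the spread among the units or introns counted. Amplified reads that carry no molecular identifiers cannot be taken as independent molecules, so intervals based on pairs can be too narrow.

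Nearly all reads of the ovary library lay in a minority of the units, beside a long tail of traces. The 157949 runs joined into 131755 units, of which 62742 consisted of 1 pair. Units with at least 10 pairs (1.41 CPM) numbered 14689 and held 96.99% of the pairs. To set aside weak signal opposite strong transcripts, a unit was kept only if its pairs reached 5% of the pairs of the opposite strand inside its covered blocks. This removed 794 units and left 13895, with 6950 on the plus strand and 6945 on the minus strand. The kept units held 96.5% of all pairs.

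Levels of the kept units spanned more than 4 orders of magnitude. The median unit had 54 pairs, or 7.62 CPM (interval of the median 7.20 to 8.19), with quartiles at 2.40 and 45.4 CPM. Units with at least 1000 pairs numbered 1501, and units with at least 5000 pairs 197. The leading unit alone held 2.67% of the pairs, the 10 leading units 9.52%, the 100 leading units 24.9% and the 1000 leading units 62.1%. In all, 551 units held 50% of all pairs and 4272 units held 90%. When pairs with identical blocks were counted once, the 100 leading units held 19.9%.

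Spliced units carried the bulk of the polyadenylated RNA. At least 1 intron was found in 7333 of the kept units (52.8%, 51.9 to 53.6), and these held 93.9% of the pairs in kept units. The share rose with the level at which a unit was read: 22.6% of units with 10 to 49 pairs had an intron, against 81.3% of units with at least 50 pairs and 97.1% of units with at least 1000 pairs. An intron needs 3 pairs across it to be counted, so it is less often seen in weak units. In strong units the same number is easily reached, so gaps that are rarely spliced are counted too. Among units with at least 50 pairs, the share was 71.5% where 10 pairs were needed to join runs and 85.6% where 1 pair sufficed. The 6562 units without an intron had a median of 19 pairs and together held 6.08% of the pairs in kept units.

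**Figure D1:**
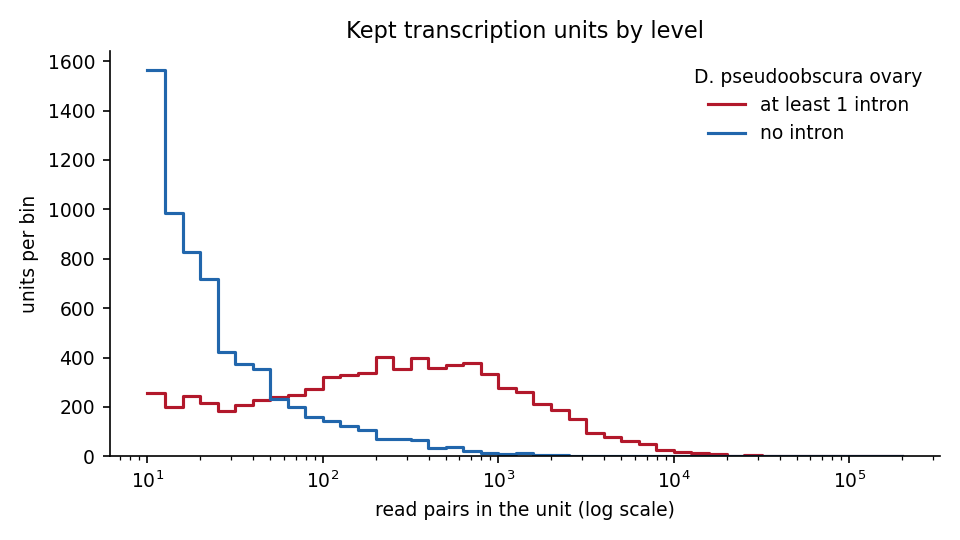
Number of kept D. pseudoobscura units (vertical axis) by their read pairs (horizontal axis, log scale), with units that have at least 1 intron in red and units without an intron in blue. Units without an intron pile up near the lower limit of 10 pairs (median 19), whereas 97.1% of the units with at least 1000 pairs are spliced.

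Units with more introns were longer and more strongly covered. The median level was 2.68 CPM without an intron, 8.90 CPM with 1 intron, 22.0 CPM with 2, 53.2 CPM with 3 to 4, 106 CPM with 5 to 9 and 225 CPM with 10 or more. Per covered kb the same medians ran from 11.2 to 12.6, 17.1, 24.2, 30.9 and 37.6 CPM per kb. The order of the classes was thus the same on both scales, with a smaller range per covered kb. Since 3 pairs suffice to count an intron at any level, strong units collect more counted introns and weak units fewer. The part of this rule in the order of the classes was not tested. The 369 units with 10 or more introns, 2.66% of all, held 13.8% of the pairs. Covered bases filled 100% of the span in the median unit without an intron and 44.4% of the span in the median unit with 10 or more.

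The span of a kept unit had a median of 842 nt (818 to 873), with quartiles at 306 and 2563 nt. With a minimum of 5 or 50 pairs in place of 10, the median was 351 or 2300.0 nt. Its covered length had a median of 704 nt. Coverage at both ends of the units was similar in the median but varied between units. Among 4996 units with at least 100 pairs and 1000 covered nt, the median share of coverage was 32.5% in the 5′ part and 30.5% in the 3′ part when each unit was cut into 3 equal parts, and 44.1% had more coverage in the 3′ than in the 5′ part. Between the 10th and the 90th percentile of units, the 5′ part held 22.8% to 43.2% and the 3′ part 19.2% to 40.4%. The typical unit thus had no excess of coverage at its 3′ side.

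The strongest unit lay on contig utg000060l from 272162 to 273744 on the minus strand. It had 188967 pairs, or 26680 CPM (26560 to 26800), and 3173 pairs of the plus strand inside it (1.68%). One intron of 87 nt, from 273442 to 273528, was spanned by 37956 pairs and read through by 145 pairs at its left end and 889 at its right end, so 98.7% of the pairs there were spliced. Its remaining introns were spanned by 43 and 95 pairs against more than 20000 unspliced pairs at each end. They were spliced in 0.184% and 0.346% of the pairs, so nearly all pairs fitted a transcript with 1 intron. Counting pairs with identical blocks once brought the unit to 10569 CPM, and it remained the strongest.

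The leading unit did not stand alone. Going along the minus strand of utg000060l, 5 units with at least 1000 pairs each followed one another from 272162 to 286430 (14.3 kb), with gaps of 297 to 1520 nt. Their levels were 26680 CPM, 6139 CPM (275265 to 276598), 687 CPM (277219 to 278638), 882 CPM (280123 to 283210) and 151 CPM (283508 to 286430). Together they held 244631 pairs, or 3.45% of the library. This row of units was singled out after its values were seen. When a single pair sufficed to join runs, the first and the second were joined into 1 unit of 34737 CPM.

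The second and the fourth unit by level lay head to head on utg000062l, transcribed away from each other. The plus-strand unit from 478523 to 483355 had 83692 pairs, or 11816 CPM (11736 to 11897). The minus-strand unit from 469421 to 483327 had 63329 pairs, or 8941 CPM (8872 to 9011). The borders overlapped over most of the plus-strand unit, but the strong coverage did not. The bins with at least 1000 pairs lay between -2367 and -842 nt from the centre on the minus strand and between 683 and 2308 nt on the plus strand, which left 1525 nt between the bodies of the 2 transcripts.

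Weak signal of the opposite strand lay over each body, and gaps spanned by few pairs joined it to the other unit. On the plus strand these gaps measured 2847 and 3618 nt and were spanned by 7 and 3 pairs. On the minus strand a gap of 3528 nt was spanned by 3 pairs. The 71 nt and 68 nt introns of the plus-strand body were spanned by 4788 and 10911 pairs on the plus strand and by 41 and 45 pairs on the minus strand. The 76 nt intron of the minus-strand body was spanned by 5371 pairs on the minus strand and by 45 pairs on the plus strand. The same gaps were thus seen on both strands; at each, the weaker strand had under 1% of the pairs. Summed over the locus, the weaker strand had 3.23% of the stronger one right of the centre and 2.21% left of it. Its highest bin had 1811 pairs, where the plus strand had 8336. The left border at 469421 rested on 3 pairs that spanned a gap of 10551 nt.

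**Figure D2:**
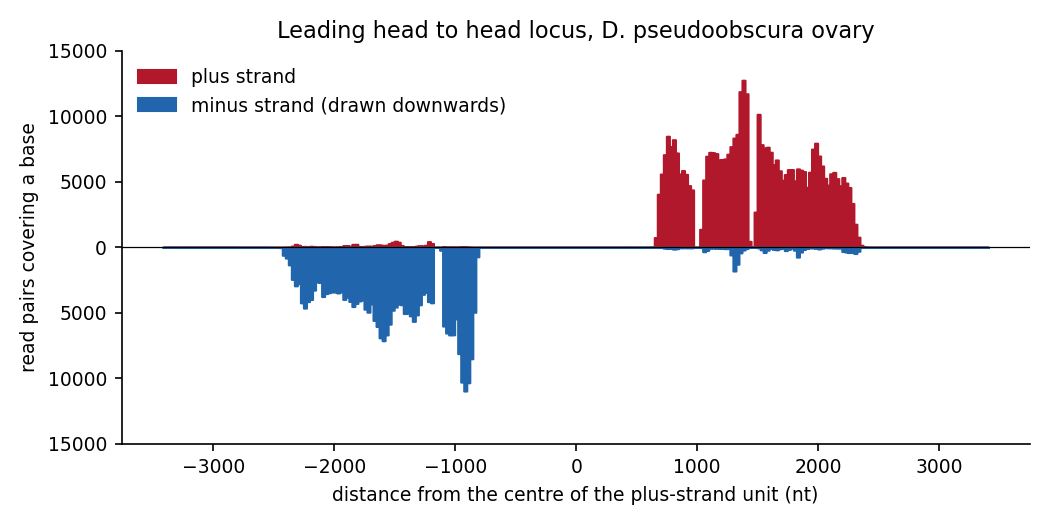
Read pairs covering a base (vertical axis, plus strand upwards in red, minus strand downwards in blue) against the distance in nt from the centre of the plus-strand unit on utg000062l (horizontal axis). The 2 bodies face away from each other with 1525 nt between them, at up to 12750 pairs per base on the plus strand and 10970 on the minus strand, and each has weak signal on the other strand.

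The remaining units among the 10 strongest were nearly all spliced. The third, on utg000060l from 2446898 to 2448867 on the minus strand, had 9866 CPM and 2 introns that were nearly always spliced, of 62 nt (5878 pairs, 99.8% spliced) and 70 nt (10147 pairs, 99.9% spliced). Its opposite strand held 9426 pairs, 13.5% of its own and the highest share among the 10 apart from the head to head pair on utg000062l. The fifth, on utg000091l from 185855 to 191919 on the plus strand, had 8078 CPM. Introns of 61, 63, 191 and 1874 nt in it were spliced in 97.4%, 94.2%, 97.3% and 87.9% of the pairs.

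Next came utg000079l from 2752821 to 2756713 (minus strand, 7145 CPM), whose single intron of 1585 nt was spanned by 3313 pairs and spliced in 99.7%. The seventh was the second unit of the row on utg000060l, with an 88 nt intron spliced in 97.3%. On utg000043l the unit from 6003844 to 6006159 (minus strand) had 6126 CPM (11264 CPM where 1 pair sufficed to join runs) and introns of 61 nt (96.6% spliced) and 96 nt (99.3% spliced). On utg000077l the unit from 1776137 to 1784257 (plus strand) had 5642 CPM over 8121 nt, and its introns of 95, 78, 69 and 106 nt were spliced in 97.3% to 99.0% of the pairs.

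The tenth unit differed from the other strong ones. It covered 729 nt of utg000135l from 383838 to 384566 on the plus strand and had 4731 CPM (4681 to 4782). It held 21 different gaps of intron size, yet the best supported was spanned by 11 pairs against 16722 and 9634 unspliced pairs at its ends (0.0834% spliced). Counting pairs with identical blocks once brought it to 1918 CPM, the lowest of the 10 under that count. The same count brought the second unit to 7128 CPM, the third to 5562 CPM, the fourth to 5640 CPM, the seventh to 3522 CPM and the eighth, on utg000043l, to 3853 CPM. No other of the 10 units was as short.

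Among all 24863 introns, 152 (0.611%) were spliced in under 10% of the pairs at their site. These lay in 125 units, and the unit around such an intron had a median of 4180 pairs over the 152 introns. A further measure was the 154 introns (0.619%) with under 5% of the pairs that spanned the same gap on the other strand. Both counts were made after the values had been seen. Leaving out either kind left 24712 or 24710 introns.

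Introns of the ovary transcripts were mostly very short. The median was 70 nt, with quartiles at 62 and 224 nt. Introns under 100 nt made up 67.9% (67.3 to 68.5), those from 100 nt to under 1000 nt 18.6% and those of at least 1000 nt 13.5%. The most frequent length was 63 nt (966 introns), and 45.8% of all introns measured 55 to 69 nt. Only 38 introns were shorter than 50 nt, although gaps down to 40 nt were admitted. The long introns were few but held most of the intron sequence: 85.2% of intron bases lay in introns of at least 1000 nt.

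Splicing was close to complete in this polyadenylated RNA. Read-through was measured as the share of unspliced pairs at both ends of an intron, over 12704 introns that overlapped no other and had at least 20 pairs. Its median was 1.78% (1.72 to 1.84). No unspliced pair was found at 30.1% of them, and 230 introns (1.81%) were read through by at least 50%. Over all pairs at these introns the share was 9.65%.

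Read-through was higher in longer introns. The median was 1.49% (1.45 to 1.55) under 100 nt, 2.44% (2.29 to 2.61) from 100 nt to under 1000 nt, 3.38% (3.06 to 3.76) from 1000 nt to under 5000 nt and 3.85% (3.23 to 4.52) from 5000 nt. These intervals reflect the spread among introns of the same library and are no test between the classes. Read-through of at least 50% had another order: it was most frequent from 100 nt to under 1000 nt, with 90 of 2289 introns (3.93%), against 123 of 9122 (1.35%) under 100 nt. A long intron can hold other transcripts that look like read-through, and their part in these values was not tested.

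First introns were more often long than later ones. First introns often carry regulatory sequence in flies, as background. In the 3445 units with 3 or more introns, the first intron had a median of 193 nt (171 to 218). The second had 70 nt, the inner ones 69 nt and the last 67 nt. Of the first introns 27.4% (25.95 to 28.95) measured at least 1000 nt, against 15.5% of the second and 6.82% (6.002 to 7.715) of the last. The inner ones after the second, which numbered 9083, measured at least 1000 nt in 10.5%. The first intron was the longest of its unit in 45.8% of the units (44.1 to 47.5) and the last in 13.1%, while first introns made up 17.7% of the introns of these units. A unit whose 5′ end was cut off by a coverage gap would count an inner intron as its first, and how often this happened was not tested. Neighbouring introns of a unit lay a median of 231 nt apart.

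**Figure D3:**
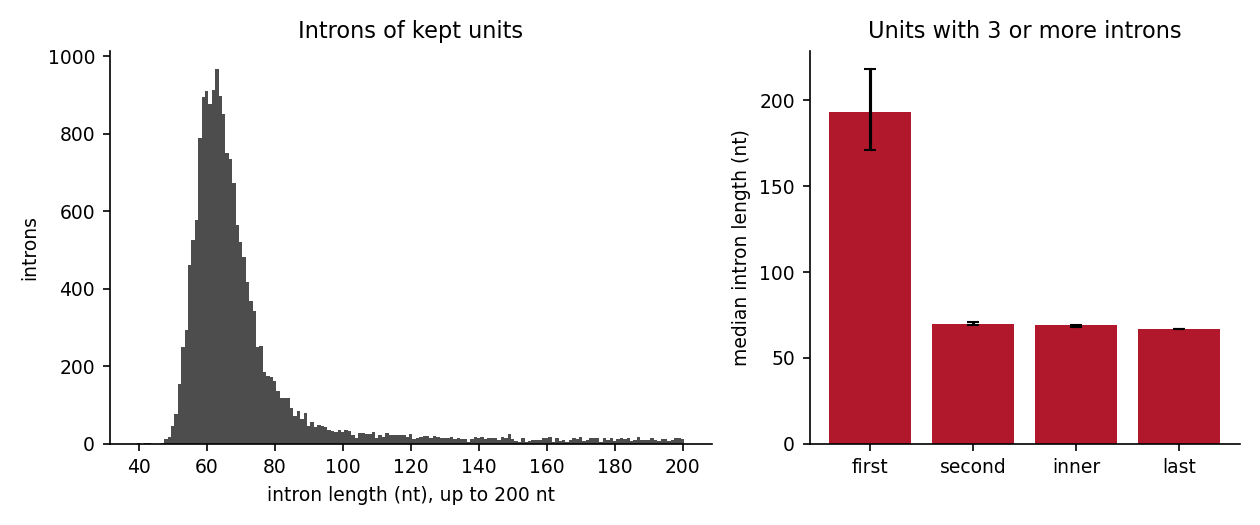
Left, number of introns of kept D. pseudoobscura units by length in nt, up to 200 nt. Right, median length in nt by place in units with 3 or more introns, with 95% intervals of the median as error bars. Lengths peak at 63 nt, and first introns have a median of 193 nt against 67 to 70 nt elsewhere.

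Alternative acceptors that lay close together were mostly a multiple of 3 nt apart. Splice donors are the 5′ ends and acceptors the 3′ ends of introns. Among 13918 donors with at least 20 pairs, 502 (3.61%, 3.30 to 3.93) were joined to a second acceptor in at least 10% of their pairs. The 2 acceptors lay 3 nt apart in 107 of them and 4 nt apart in 5. Within 50 nt, 193 of 229 distances (84.3%) were multiples of 3. Acceptors a codon apart are known in flies and other animals, where they add or remove 1 amino acid when they lie in coding sequence.

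The other end of the intron behaved differently. Among 13903 acceptors, 677 (4.87%, 4.52 to 5.24) were joined to a second donor. Only 6 of these donor pairs lay 3 nt apart and 14 lay 4 nt apart, and 65 of the 115 within 50 nt (56.5%) were at multiples of 3. The median distance was 135 nt between acceptors and 567 nt between donors.

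The longest unit ran over 74768 nt of utg000001l, from 7338414 to 7413181 on the minus strand. It had 26 introns, the longest of 19495 nt, and 628 CPM (610 to 647). Its covered blocks filled 24.4% of the span. The following by span measured 69519 nt (utg000110l from 3904168, 24 introns), 66276 nt (utg000061l from 1005545, 14 introns), 65405 nt (utg000092l from 3994270, 11 introns) and 61419 nt (utg000079l from 641229, 11 introns). They had 385, 357, 385 and 113 CPM. These 5 units were thus all long through their introns, and all were read well above the median level.

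The unit with most introns, 33, lay on utg000254l from 232371 to 272782 on the plus strand and had 145 CPM. Its second intron measured 10372 nt and was spanned by 14 pairs with 1 unspliced pair at its ends. The others with most introns had 29 (utg000063l from 2827547, 706 CPM) or 28 (utg000003l from 1338006, utg000092l from 1066833 and utg000177l from 434032, between 220 and 248 CPM). They differed in how much of the span the introns took. Covered blocks filled 80.3% of the 19898 nt on utg000063l, where no intron exceeded 886 nt, and 21.6% of the 58067 nt on utg000003l, where the longest measured 16671 nt.

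The strongest units without any counted intron had far fewer pairs than the strongest units with one. The latter include the unit on utg000135l with 33512 pairs, whose counted intron was spliced in only 0.0834% of the pairs at its site. As 3 pairs suffice to count an intron at any level, very strong units rarely stay without one. The part of this rule in the contrast was not tested. On utg000079l the unit from 2012074 to 2014198 (minus strand) had 8815 pairs, or 1245 CPM, over 2125 nt. On utg000110l the unit from 1420530 to 1420837 (minus strand) had 8649 pairs over 308 nt and 3 pairs of the opposite strand inside it. The other 3 named had 4492 pairs over 376 nt (utg000092l from 1499989), 4350 over 467 nt (utg000092l from 3455953) and 4089 over 888 nt (utg000043l from 630729), all on the plus strand. Per covered kb the order changed, with 3965 CPM per kb for the unit on utg000110l against 586 CPM per kb for that on utg000079l.

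Units lay close together on both strands. Of the kept units, 4501 (32.4%) lay wholly inside the span of another kept unit on either strand. The share was 45.4% with a minimum of 5 pairs and 9.13% with a minimum of 50 pairs. They were weak, with a median of 17 pairs, and 11.98% of them had an intron. The 9394 units outside any other had a median of 157 pairs, and 72.3% had an intron. Units outside any other formed 9253 neighbouring pairs.

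Neighbours on the same strand made up 51.4% (50.4 to 52.5), those head to head 24.4% and those tail to tail 24.2%. Head to head neighbours are transcribed away from each other, and tail to tail neighbours towards each other. Tail to tail neighbours were the ones that met. Of them 441 of 2239 (19.7%, 18.1 to 21.4) overlapped, by a median of 64 nt, against 37 of 2255 head to head neighbours (1.64%, 1.16 to 2.26). Within 200 nt or overlapping were 40.2% of the tail to tail and 18.1% of the head to head neighbours.

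The median gap was 842 nt (763 to 930) on the same strand, 704 nt (663 to 770) head to head and 574 nt (483 to 681) tail to tail. The median on the same strand was 274 nt with bases covered by at least 3 pairs and 2253 nt with units of at least 50 pairs. Among units of at least 50 pairs the order of the other medians turned, with 840.0 nt (758 to 921) head to head and 944 nt (803 to 1125) tail to tail, and these intervals overlapped. A coverage gap can split a transcript into 2 units of the same strand, and 31.7% of these neighbours lay 0 to 199 nt apart. The share of tail to tail neighbours that overlapped was 6.49% with bases covered by at least 3 pairs, and that of head to head neighbours 1.05%. Where 1 pair sufficed to join runs, the shares were 21.1% tail to tail and 5.59% head to head.

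**Figure D4:**
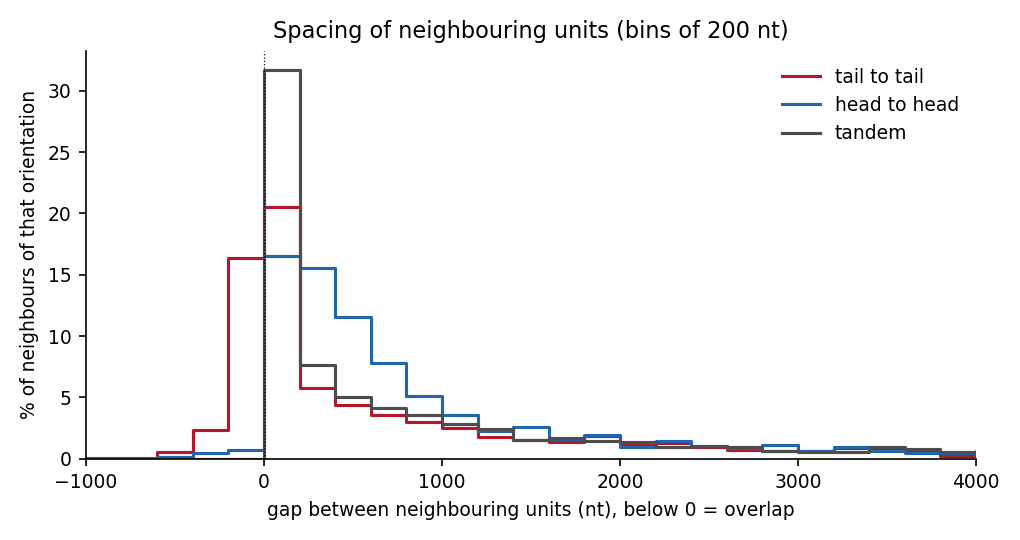
Share of neighbouring units (vertical axis, % of each orientation) by the gap between them in nt (horizontal axis, bins of 200 nt, overlaps left of the dotted line). Tail to tail neighbours (red) overlap far more often than head to head neighbours (blue), 19.7% against 1.64%, and same-strand neighbours (grey, tandem in the legend) peak in the bin from 0 nt.

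Whole units also lay inside introns. Among 7152 kept units with at least 50 pairs, 68 lay inside an intron of at least 1000 nt of a unit on the opposite strand, and 40 of them (58.8%) were spliced themselves. Inside an intron of the same strand lay 113, of which 9 (7.96%, 3.71 to 14.6) were spliced. The interval of the share on the opposite strand was 46.2 to 70.6, and no test between the 2 shares was made. Unspliced signal of the same strand may be read-through of the host or a transcript of its own, and the 2 cannot be told apart here.

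Spliced units within an intron of the other strand lay in hosts of very different strength. On utg000076l the minus-strand unit from 660514 to 664221 had 1451 pairs and lay in a 15835 nt intron of a 9-intron unit with 5072 pairs. On utg000003l the plus-strand unit from 1310103 to 1312626 had 1302 pairs and 2 introns inside a 2784 nt intron of a unit with 811 pairs. On utg000129l the minus-strand unit from 1001167 to 1004871 had 1167 pairs and 6 introns, against 113 pairs for its host. The unit with most pairs, 1712, lay in a 10600 nt intron of a host with 20 pairs on utg000001l.

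Transcripts of opposite strands shared few bases at like levels. Covered bases totalled 26.8 Mb, or 17.7% of the reach of the contigs. Of these bases 20.6% were covered on both strands and 6.13% by at least 3 pairs on each. A base was called balanced when, in addition, the weaker strand had at least 20% of the stronger, a measure chosen after the values had been seen. Balanced bases made up 0.990% of the covered bases, or 266 kb.

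The weak signal of the other strand was also measured at introns, where the gap is the same on both strands. At junctions with at least 100 pairs, 7293 of 639168 pairs (1.14%, 1.12 to 1.17) lay on the minor strand. The median junction had 0.805%, 139 of 1860 junctions exceeded 5%, and 5 exceeded 20%. Overlaps between kept units were compared by the pairs of whole units, which is another quantity than the share at a junction. Of 4353 overlapping unit pairs, 3877 (89.1%) were nested, with a median weaker unit of 17 pairs inside a stronger unit of 2160 pairs. The median ratio of weaker to stronger was 1.08% over all overlaps and 0.920% among the nested ones, and 3686 overlaps (84.7%) had a weaker unit under 5%. A limit of 20% in place of 5% of the opposite strand left 2138 overlaps.

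Tail to tail overlaps joined units of more similar strength. There were 440 of them, with a median shared length of 64 nt. The weaker unit had a median of 29.7% of the pairs of the stronger, and 74.3% of the weaker units had an intron of their own, against 11.5% of those in nested overlaps. The weaker units had a median of 108 pairs tail to tail and of 17 pairs when nested. Introns are seen less often in weak units, and the part of level in this difference was not tested. Balanced bases were present in 190 of the 440 (43.2%, 38.5 to 48.0), and 48 had at least 100 of them. Nested overlaps had a balanced base more often, in 2219 of 3877 (57.2%, 55.7 to 58.8), but they also shared a longer median of 189 nt. At least 100 balanced bases were found in 126 of these 3877, a smaller share than the 48 of 440 tail to tail. The 36 head to head overlaps shared a median of 146 nt, and 22 had a balanced base.

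The largest balanced overlap lay on utg000063l. The plus-strand unit from 2747447 to 2751672 (957 pairs, 8 introns) and the minus-strand unit from 2749707 to 2752381 (331 pairs, 1 intron) ran into each other and shared 1740 nt, of which 1634 were balanced. Coverage there reached 82 pairs on the plus strand and 37 on the minus strand. Next by balanced bases came a nested overlap on utg000040l, where the minus-strand unit from 636454 to 638503 (139 pairs, 1 intron) shared 1579 balanced nt with a plus-strand unit of 3957 pairs. At that site the plus strand reached 61 pairs per base and the minus strand 26.

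Among overlaps with at least 50% of the stronger unit's pairs in the weaker one, the longest shared length was the 3117 nt of the head to head pair on utg000062l, with only 77 balanced bases. That overlap arose through gaps spanned by 7 pairs or fewer. Those next in length were weak: 529 nt on utg000079l from 552538 (15 and 11 pairs) and 518 nt on utg000322c from 3894 (22 and 42 pairs). The fourth was strong. On utg000178l a plus-strand unit from 1330 to 5880 with 2159 pairs and a minus-strand unit from 5383 to 11839 with 1683 pairs shared 498 nt at their 3′ sides, 407 of them balanced. The fifth, on utg000062l from 1315205 to 1315593, joined intronless units of 473 and 656 pairs over 389 nt.

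Transcription was spread unevenly over the contigs. Kept units lay on 141 of the 260 contigs. The 32 contigs that reached at least 1 Mb held 72.6% of the summed reach and 82.8% of the pairs, and their levels lay between 1.73 and 24.3 CPM per kb. Over the 123 contigs of at least 100 kb the median was 2.82 CPM per kb, with quartiles at 0.267 and 6.91. The median number of kept units was 5.66 per 100 kb.

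Among the contigs of at least 100 kb, a single unit held a large part of the pairs in each of the 5 with the highest levels. On utg000060l (24.3 CPM per kb) the leading unit held 42.5% of the pairs of the contig, and on utg000062l (18.7 CPM per kb) 38.3%. On utg000256l (17.8 CPM per kb) it held 39.0%, on utg000184l (15.8 CPM per kb) 25.7% and on utg000091l (13.03 CPM per kb) 61.4%. In units per 100 kb these contigs had 9.77, 9.63, 22.7, 19.8 and 6.34.

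Other contigs of this size were nearly silent. The lowest levels belonged to utg000047l, with 7 pairs over 235966 nt, and to utg000037l, utg000035l and utg000065l, with 4, 6 and 4 pairs over more than 100 kb each. On utg000020l, 20 pairs lay over 480353 nt, or 0.00588 CPM per kb (0.00359 to 0.00908). No kept unit lay on 119 contigs, 18 of which reached at least 100 kb. They summed to 6.84 Mb (4.51% of the reach) and received 1242 pairs. Reads that fit more than 1 place of the genome are not in the file, so repeated sequence can look silent.

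**Figure D5:**
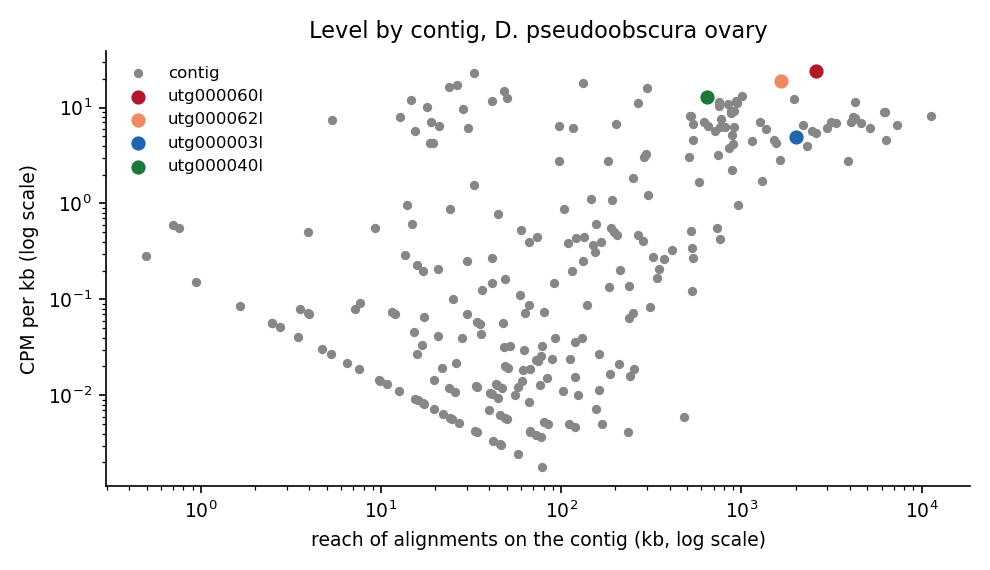
Level of each D. pseudoobscura contig in CPM per kb (vertical axis, log scale) against the reach of alignments on it in kb (horizontal axis, log scale), 1 point per contig and the 4 contigs of the legend in colour. Contigs of at least 1 Mb lie between 1.73 and 24.3 CPM per kb, with utg000060l and utg000062l on top, whereas shorter contigs reach down to far lower levels, such as 0.00588 CPM per kb on utg000020l.

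In the study, 3l is the name of a piRNA cluster read from 1 strand and 40l that of a cluster read from both. Contigs utg000003l and utg000040l are described over their whole reach, and cluster borders were not applied. Contig utg000003l carried 188 kept units, 112 on the plus strand and 76 on the minus strand, and 46.3% had an intron (39.0 to 53.7). Contig utg000040l carried 105, 53 on the plus strand and 52 on the minus strand, and 44.8% had an intron (35.1 to 54.8). Kept units stood at 9.41 and 16.4 per 100 kb.

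The units with most pairs on utg000003l lay on the minus strand. They ran from 1656712 to 1660942 (1075 CPM, 10 introns), from 1624811 to 1625274 (741 CPM, 1 intron) and from 1263123 to 1267841 (687 CPM, 3 introns). The longest unit of the contig, also among those with most introns in the library, ran over 58067 nt from 1338006 to 1396072 on the minus strand at 248 CPM (237 to 260). Its 2 longest introns measured 16671 and 6127 nt and were spanned by 5 and 10 pairs.

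The same contig held the long stretches without a kept unit. The longest ran over 333 kb from 521279 to 854522 and received 192 pairs, 158 on the plus strand and 34 on the minus strand. The others, of 112 kb from 1512805 and of 90.8 kb from 937948, received 40 pairs (33 on the plus strand) and 35 pairs (32 on the plus strand). All 3 stretches were bordered by units of several strengths, from 11 to 5246 pairs. The plus strand thus led in each of the 3, with under 1 pair per kb. Repeated sequence in such stretches can look silent, since reads that fit more than 1 place are not in the file.

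On utg000040l the leading units ran from 301320 to 313222 (minus strand, 1371 CPM, 9 introns), from 542653 to 543884 (plus strand, 934 CPM, 2 introns) and from 481089 to 491136 (minus strand, 841 CPM, 6 introns). The longest, from 122083 to 157357 on the plus strand, spanned 35275 nt with 12 introns at 298 CPM. It bordered the longest stretch without a kept unit, 121 kb from 157358 to 278609, which received 13 pairs, 7 on the plus strand and 6 on the minus strand. At the far side of that stretch stood a minus-strand unit of 3981 pairs with 10 introns. A second stretch of 75.3 kb from 381855 received 150 pairs, 115 of them on the plus strand.

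The same rules were applied to the other polyA libraries to see where D. pseudoobscura differed. The library called D. bifasciata here is so named by its title and organism, whereas its description names D. eugracilis. Read pairs were close in number, 7082759 in D. pseudoobscura, 6994057 in D. bifasciata and 6551749 in D. eugracilis. Pairs of D. bifasciata were longer, with a median of 158 covered bases against 116 in both others. Median intron lengths differed by 1 nt, with 70 nt in D. pseudoobscura and 69 nt in both others, and D. pseudoobscura introns were most often 63 nt long, those of D. bifasciata 62 nt and those of D. eugracilis 59 nt. Introns under 100 nt made up 67.9% (67.3 to 68.5) in D. pseudoobscura, 68.8% (68.2 to 69.4) in D. bifasciata and 61.5% (60.9 to 62.2) in D. eugracilis.

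The place of the longest intron was close to that in D. bifasciata. The first intron was the longest in 45.8% (44.1 to 47.5) of D. pseudoobscura units with 3 or more introns, in 45.0% (43.4 to 46.7) in D. bifasciata and in 42.1% (40.3 to 43.9) in D. eugracilis. Reads were less concentrated in D. pseudoobscura, where the 100 leading units held 24.9% of the pairs, against 28.98% in D. bifasciata and 36.8% in D. eugracilis. Thinning all 3 libraries to 6551749 pairs left these shares at 24.9%, 28.98% and 36.8%. Counting pairs with identical blocks once gave 19.9% in D. pseudoobscura. This count was not made in the other libraries, so the part of duplicate reads in the order was not tested.

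D. pseudoobscura had more weak units nested on the opposite strand. Kept units numbered 13895 in D. pseudoobscura, 11185 in D. bifasciata and 11898 in D. eugracilis, but those outside the span of any other numbered 9394, 10065 and 11396. Opposite-strand overlaps numbered 4353, 1216 and 473, of which 89.1%, 45.6% and 20.7% were nested. The share of pairs on the weaker strand at introns was also highest in D. pseudoobscura, at 1.14% (1.12 to 1.17) against 0.799% (0.783 to 0.814) in D. bifasciata and 0.304% (0.295 to 0.313) in D. eugracilis. Its part in the number of overlaps was not tested. Tail to tail overlaps had another order, with 440 in D. pseudoobscura, 594 in D. bifasciata and 352 in D. eugracilis. Balanced bases made up 0.990% of the covered bases in D. pseudoobscura, 0.751% in D. bifasciata and 0.263% in D. eugracilis.

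The share of spliced units was lower in D. pseudoobscura, at 52.8% of kept units against 63.7% in D. bifasciata and 63.3% in D. eugracilis. Among units with at least 50 pairs the distance was smaller, with 81.3% (80.3 to 82.2) in D. pseudoobscura, 85.3% (84.5 to 86.1) in D. bifasciata and 84.0% (83.2 to 84.9) in D. eugracilis. The median span was shorter as well, 842 nt against 1297 nt in D. bifasciata and 1066 nt in D. eugracilis. Over bases covered by at least 3 pairs D. pseudoobscura came to 509 nt, D. bifasciata to 976 nt and D. eugracilis to 654 nt. The spread between flies was not measured in any of the 3.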

How the data were processed

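Ovarian polyA RNA was sequenced as paired ends. As the labels and the study's methods state, the authors trimmed adapters and filtered reads by quality with the FASTX-Toolkit, mapped pairs to a Nanopore assembly with STAR 2.7.3a and used SAMtools 1.10 and bedtools 2.28.0. The deposited lists hold genome-unique mappers in 12 columns, and the mapping score the authors deposited had 1 value in every line and was not used as a level. The strain in the labels differs from the stock in the methods.

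Pairs were counted in Python 3.11.15 with numpy 2.4.6, numba 0.67.0, pandas 2.3.3 and scipy 1.17.1. Mates were merged, and a pair belonged to the unit of its 5′-most block. Where called introns of a unit overlapped, the one with most pairs was used. Shares carry exact Clopper-Pearson intervals, levels exact Poisson intervals and medians order-statistic intervals. Depth was 7082759 pairs, so 10 pairs equal 1.41 CPM. The caller was tested on simulated data.

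Named were the 10 units with most pairs, the 5 with longest span, most introns, and most pairs without an intron, the 5 longest overlaps with a weaker unit of at least 50%, the leading units of utg000003l and utg000040l, and the 5 contigs with most and least CPM per kb. Units in introns, balanced overlaps and the row on utg000060l were added after values were seen. The contigs, lists and rules were chosen with earlier results of these data known. Contig lengths were not used here, and reach is the furthest aligned base. No sequences are shown, since the mapped genome was not used here.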

Additional observations from a re-analysis of the deposited data

How the results depend on the processing

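The counts were recomputed with 11 other settings and with 2 added after the data had been seen (introns spliced in at least 10% of the pairs at their site, and introns with at least 5% of the pairs of the same gap on the other strand). Introns (19337 to 29200), neighbouring units (6380 to 11991) and contigs with kept units (119 to 151) stayed within 1.5 times their value under all 13. The pair minimum moved the other counts. With 5 pairs there were 24080 units, 22220 kept units and 9255 opposite-strand overlaps. With 50 pairs there were 7260 units, 7152 kept units and 779 overlaps. With a limit of 20% of the opposite strand there were 2138 overlaps. With bases covered by at least 3 pairs, tail to tail overlaps numbered 139. Counting identical pairs once brought the leading unit to 10569 CPM. The median intron stayed between 70 and 71 nt, and the first intron was the longest in 40.7% to 46.3% of units. The median span (351 to 2300.0 nt), the spliced share (36.0% to 81.3%) and the nested share of overlaps (55.1% to 96.1%) depended on the settings, and were 842 nt, 52.8% and 89.1% as reported. No paired analysis was possible because each group had 1 library. Depth limits what is said of weak units: at 10 pairs, introns and borders are often unseen.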
